A study of Petunia x hybrida with 12 samples.

Results

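The genes described here are the 118 of 32928 petunia gene models that the annotation ties to fatty acid synthesis in plastids and to the first steps from fatty acids and glycerol 3-phosphate to glycerolipids. They were taken by a rule on annotation and not on measured values, though with earlier results of these data known. Of them 67 carry the GO term for fatty acid biosynthesis without the term for transfer of acyl groups. A description that names an acyl carrier protein, an enzyme acting on acyl groups bound to it, acetyl-CoA carboxylase, the E1 component of pyruvate dehydrogenase or a glycerol-3-phosphate acyltransferase is held by 73, and 22 meet both conditions. RNA was sequenced from roots of Petunia hybrida in 4 groups of 3 replicates: roots of the mutant line ram1-2 inoculated with the arbuscular mycorrhizal (AM) fungus Rhizophagus irregularis (MUCL 43204), ram1-2 control roots without the fungus, inoculated roots of the wild type (WT) line W115, and W115 control roots. Inoculated plants received soil inoculum, all plants were fed weekly with 1 nutrient solution, and roots were taken 15 days after inoculation. The paper states that nurse plants were used to reach comparable colonization in both lines. It reports a smaller share of fungal reads in mycorrhizal ram1 than in mycorrhizal WT roots, so line and amount of fungus cannot be told apart here. The mutant was a single line, here called ram1, and no source used here says how far its genetic background matches W115, so an effect of the mutation and of the background cannot be told apart. Whole roots were used, and in such samples fewer cells of a type and less RNA per cell cannot be told apart.

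Plants make fatty acids in plastids. Pyruvate dehydrogenase provides acetyl-CoA, acetyl-CoA carboxylase turns it into malonyl-CoA, and a transferase moves the malonyl group to acyl carrier protein (ACP), the small protein that carries the growing chain. A condensing enzyme (3-oxoacyl-ACP synthase, KAS), a reductase (KAR), a dehydratase (HAD, also called FabZ) and a second reductase (enoyl-ACP reductase, ENR) then lengthen the chain in repeated cycles, until a thioesterase releases it or a desaturase puts a double bond into it. Glycerol-3-phosphate acyltransferases (GPAT) start glycerolipid assembly, and those of the GPAT4 to GPAT8 type are known in Arabidopsis for making precursors of cutin and suberin. AM fungi lack the enzyme complex that makes fatty acids from acetyl-CoA in the cytosol and receive lipid from the host in arbuscules, the branched fungal structures inside root cortex cells. RAM1 is a GRAS-type transcription factor needed for arbuscule development, and RAM2 is a GPAT of the GPAT6 type known from Medicago for its role in this lipid supply.

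The name of the pathway fits part of the 118 genes. The steps above from pyruvate dehydrogenase to thioesterases and acyl-ACP desaturases hold 61 members, here called the core, for which pyruvate dehydrogenase and ACP genes described as mitochondrial and the homomeric form of acetyl-CoA carboxylase were left out. This split follows the descriptions, but it too was made with earlier results of these data known. The remaining 57 members are GPAT and lysophosphatidate acyltransferase genes, mitochondrial genes, sphingolipid and sterol desaturases and 22 genes with a fatty acid hydroxylase domain, many of them described as sterol or sphingolipid enzymes and 2 as beta-carotene hydroxylase. Only genes with a mean of 10 or more reads in some group were tested, which left 102 members, 54 of them in the core. Of these 102, 84 reached the minimum in all 4 groups. Through mycorrhizal WT roots alone 2 passed it, which were RAM2 and the thioesterase gene Peaxi162Scf00205g01124.1. Of the WT groups, 4 members reached it in mycorrhizal but not in control roots, and 4 in control but not in mycorrhizal roots. A count over tested members thus includes genes that had to differ to be counted. The other 16 members stayed below the minimum, and 1 of them had no read in any library.

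Between 7152267 and 13391147 reads per library were counted on genes, and 96.9% to 97.5% of them matched a single gene. The reads of the 118 members made up 0.360% to 0.408% of a library in mycorrhizal ram1 roots and 0.443% to 0.457% in ram1 control roots, against 0.796% to 0.824% in mycorrhizal WT roots and 0.462% to 0.500% in WT control roots. RAM1 itself (Peaxi162Scf00420g00650.1) had 6.06, 8.62 and 8.32 CPM (reads relative to the scaled library total) in mycorrhizal ram1 roots and 0.328, 0.231 and 0.148 CPM in ram1 control roots. It had 115.1, 108 and 128 CPM in mycorrhizal WT roots and 0.0812, 0.335 and 0.235 CPM in WT control roots. Of the ram1 libraries, control replicate 3 and mycorrhizal replicate 1 lay farther from the others of their groups (chi-square per degree of freedom 38.4 and 45.9 for the first, 29.1 and 38.6 for the second) than those did from each other (15.7 and 12.2). In the WT, mycorrhizal replicate 3 also lay farther from the others of its group (19.85 and 19.71) than those did from each other (6.99). Among WT control libraries replicate 1 gave 20.13 and 21.57 against the others, and those gave 15.78. The replicates were taken as separate samples by their labels, and the p values measure the spread between them.

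The summed level of the core genes was more than 2-fold higher in mycorrhizal than in control WT roots, and in ram1 the same sums lay close together. The summed RPKM of the 61 core members, a level per length of coding sequence, was 1984 ± 149 in mycorrhizal ram1 roots and 2070 ± 149.8 in ram1 control roots, against 6054 ± 486 in mycorrhizal WT roots and 2373 ± 111 in WT control roots (SD, n = 3 each). Mycorrhizal over control roots gave 0.958 in ram1 and 2.55 in the WT. The lowest of the 3 mycorrhizal WT libraries had 5757 RPKM and the highest of the other 9 libraries had 2491 RPKM. The other 57 members summed to 1874 ± 125 RPKM in mycorrhizal ram1 roots and 2336 ± 80.5 RPKM in ram1 control roots, against 2619 ± 427 RPKM in mycorrhizal WT roots and 2222 ± 27.4 RPKM in WT control roots.

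**Figure D1:**
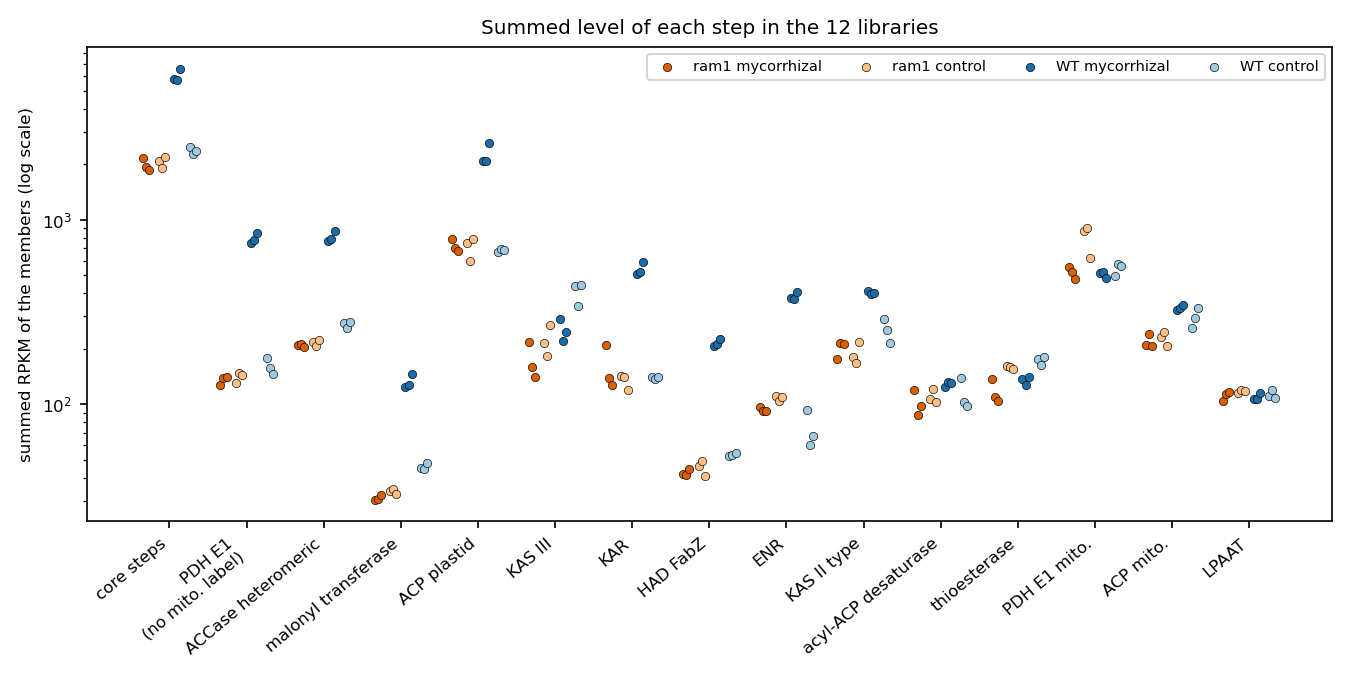
Summed RPKM of the members of each step in each library, on a logarithmic axis, with 3 points per group. In the steps from pyruvate dehydrogenase to ENR other than KAS III the mycorrhizal WT libraries lie above the other 9 libraries, while for lysophosphatidate acyltransferases (LPAAT) all 12 lie close together.

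Step by step, the ratio of summed RPKM in mycorrhizal over control WT roots was 5.25 for ENR (385 ± 19.5 and 73.5 ± 17.2 RPKM), 4.92 for pyruvate dehydrogenase E1 without a mitochondrial label (791 ± 54.3 and 160.6 ± 15.5 RPKM), 4.03 for FabZ and 3.90 for KAR. It was 3.31 for plastid ACP, 2.98 for the heteromeric carboxylase and 2.89 for the malonyl transferase. The same ratios in ram1 lay between 0.867 for ENR and 1.18 for KAR. For condensing enzymes the ratio was 1.07 in ram1 and 1.60 in the WT for the KAS II type, and 0.777 in ram1 and 0.619 in the WT for KAS III. Steps at the end of the pathway differed less: the ratio in the WT was 1.14 for acyl-ACP desaturases, 0.779 for thioesterases and 0.975 for LPAAT. For the mitochondrial counterparts the ratio was 0.648 in ram1 and 0.931 in the WT for pyruvate dehydrogenase E1, and 0.958 in ram1 and 1.13 in the WT for ACP. Plastid ACP summed to 722 ± 60.1 RPKM in mycorrhizal ram1 roots and 713 ± 101 RPKM in ram1 control roots, against 2261 ± 294 RPKM in mycorrhizal WT roots and 682 ± 15.6 RPKM in WT control roots. These sums were described and not tested.

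Of the 102 tested members 31 were higher and 22 lower in mycorrhizal than in control WT roots with an adjusted p below 0.05. Of all 22954 tested genes 12.6% were higher and 9.14% lower. In the core 27 members were higher and 13 lower of 54, with a median log2 fold change of 0.43, and among the other members 4 were higher and 9 lower of 48, with a median of −0.06. Over all tested genes the median was 0.00. In 30 of the 31 higher members the mycorrhizal and control libraries did not overlap. These 31 had been picked by the test on the same libraries, and the share without overlap was not computed over all tested genes. A fitted change of at least 2-fold was found for 24 higher and 16 lower members, against 5.88% and 3.78% of all genes. The number of lower members was 14 without WT mycorrhizal replicate 2. In the core it was 7 without that library, and 8 without WT mycorrhizal replicate 3 or WT control replicate 1.

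**Figure D2:**
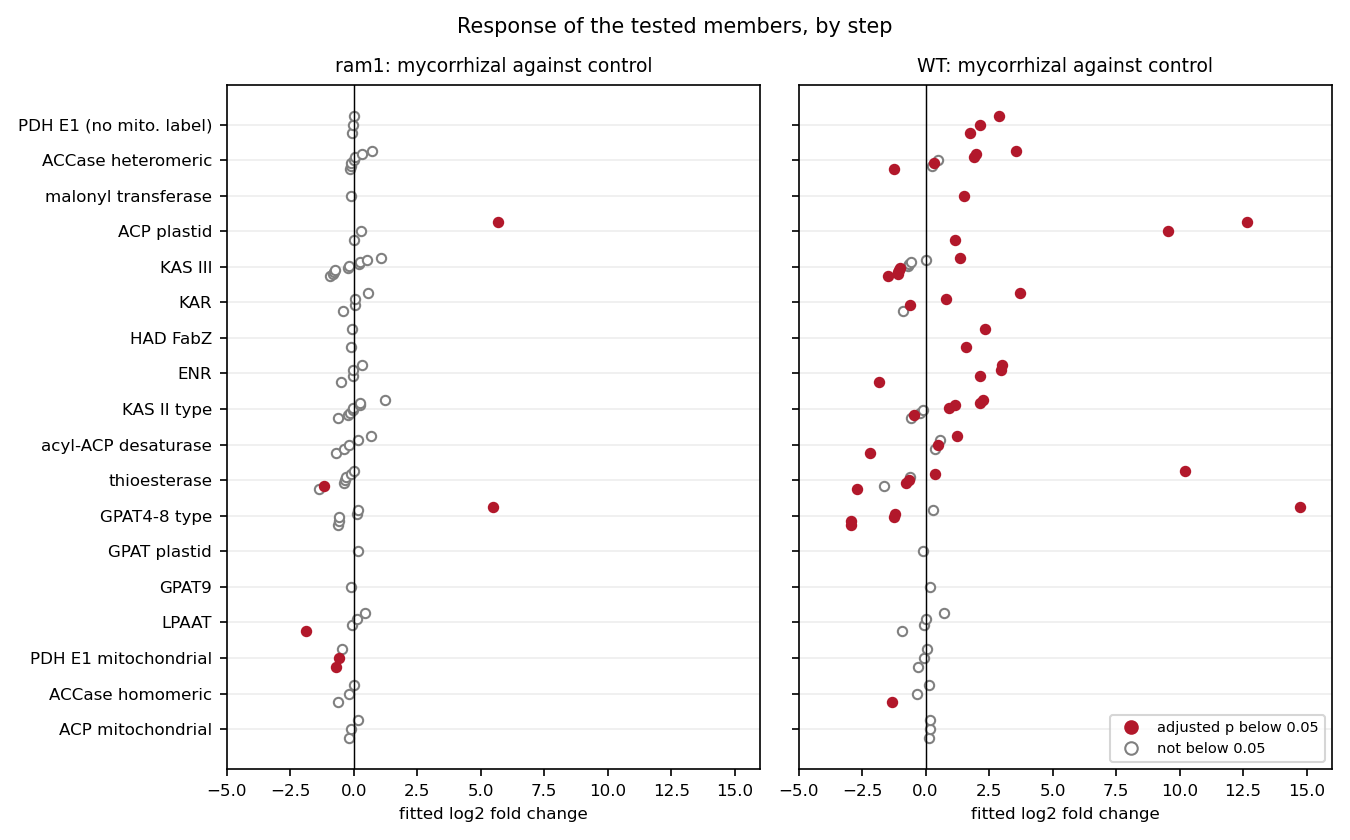
Fitted log2 fold change of each tested member in mycorrhizal against control roots, for ram1 (left) and the WT (right), grouped by step from the start of the pathway downwards. Filled points have an adjusted p below 0.05. In the WT the first steps lie mostly right of 0 and KAS III, thioesterases and GPAT4 to GPAT8 mostly left of it, while in ram1 most points lie near 0.

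All 3 E1 genes of pyruvate dehydrogenase without a mitochondrial label rose in mycorrhizal WT roots. The gene for the beta subunit of pyruvate dehydrogenase E1 Peaxi162Scf00394g00118.1 had 37.9, 41.4 and 39.9 CPM in mycorrhizal ram1 roots and 41.9, 42.7 and 42.3 CPM in ram1 control roots. It had 329.9, 322 and 351 CPM in mycorrhizal WT roots and 40.5, 47.8 and 46.5 CPM in WT control roots. The mycorrhizal WT libraries stood far above the other 9, which lay close together. The change in the WT was clear (log2 fold change 2.90, SE 0.0908, adjusted p 6.49e-09), it did not pass the test in ram1 (−0.09, adjusted p 0.498), and the difference between the responses was −2.99 (SE 0.123, adjusted p 8.80e-07). The gene for the alpha subunit Peaxi162Scf00047g02454.1 had 97.3 ± 5.90 CPM in mycorrhizal ram1 roots and 100.1 ± 5.74 CPM in ram1 control roots, against 524 ± 27.6 CPM in mycorrhizal WT roots and 118 ± 15.9 CPM in WT control roots (SD, n = 3 each; log2 fold change in the WT 2.15). A second beta subunit gene, Peaxi162Scf00317g00114.1, rose in the WT as well (1.74), and the responses of all 3 genes were lower in ram1. The 3 tested E1 genes described as mitochondrial did not pass the test in the WT, where the alpha subunit gene Peaxi162Scf00828g00116.1 had 221 ± 22.2 CPM in mycorrhizal and 269.8 ± 25.5 CPM in control roots.

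Acetyl-CoA carboxylase of plastids is built from biotin carboxylase, a biotin carrier and the alpha and beta subunits of a carboxyltransferase. The beta subunit is encoded by plastid DNA in most plants, and the 2 members with that description had few reads and did not pass the test of mycorrhizal against control roots in either line (means of 2.87 and 1.81 CPM in mycorrhizal WT roots). A gene for the biotin carboxyl carrier protein, the part to which biotin is bound (Peaxi162Scf00013g00635.1), had 13.0, 18.4 and 15.0 CPM in mycorrhizal ram1 roots and 12.4, 11.8 and 13.1 CPM in ram1 control roots. It had 144, 155 and 158 CPM in mycorrhizal WT roots and 13.7, 13.6 and 11.3 CPM in WT control roots. Only the mycorrhizal WT libraries were high (log2 fold change 3.57, SE 0.134, adjusted p 1.82e-08). A second gene for this carrier protein, Peaxi162Scf00353g00743.1, rose by less than 2-fold in the WT. It held 14.9% of the summed RPKM of the heteromeric carboxylase in WT control roots, against 8.42% for the first gene. In mycorrhizal WT roots these shares were 6.35% and 33.5%. Biotin carboxylase (Peaxi162Scf00021g02414.1) rose in the WT (log2 fold change 2.00) to 365 CPM, against 91.4 CPM in WT control roots, and the alpha subunit of the carboxyltransferase Peaxi162Scf00141g00125.1 rose to a similar degree (1.90). A second alpha subunit gene, Peaxi162Scf00056g00313.1, went the other way, with 135, 108 and 94.7 CPM in mycorrhizal ram1 roots and 124, 89.6 and 149.7 CPM in ram1 control roots. It had 85.2, 83.0 and 82.6 CPM in mycorrhizal WT roots and 196, 156 and 244 CPM in WT control roots. It fell in the WT (log2 fold change −1.25, SE 0.208, adjusted p 0.00147), and its share of the summed RPKM of the heteromeric carboxylase was 24.3% in mycorrhizal and 25.5% in control roots of ram1, against 4.66% in mycorrhizal and 32.8% in control roots of the WT. Its response differed between the lines by 1.15 (adjusted p 0.0332), a call that was lost (adjusted p 0.0569 to 0.0774) when any 1 of 9 libraries was left out, the exceptions being WT control replicate 2 and replicate 3 of each ram1 group. Of the homomeric carboxylase, 1 of 3 genes fell in the WT (Peaxi162Scf00310g00211.1, −1.32).

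The malonyl transferase (Peaxi162Scf00055g00057.1), which loads malonyl groups onto ACP, had 34.5, 35.2 and 36.3 CPM in mycorrhizal ram1 roots and 38.5, 38.4 and 36.8 CPM in ram1 control roots. It had 144, 148 and 161 CPM in mycorrhizal WT roots and 51.1, 50.8 and 55.4 CPM in WT control roots. It rose in the WT (log2 fold change 1.52, SE 0.0768, adjusted p 1.22e-07), and its response was lower in ram1 (−1.62).

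**Figure D3:**
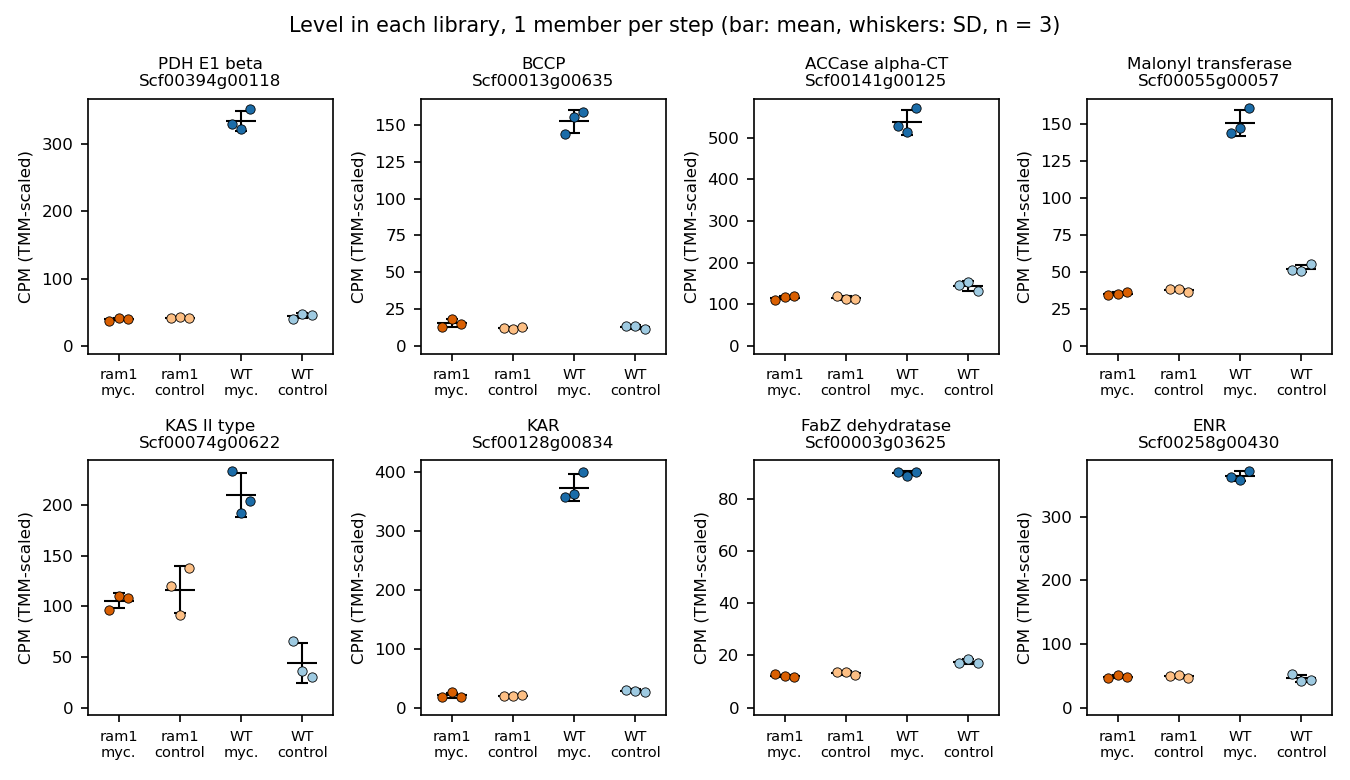
Level in CPM of 8 members in each of the 12 libraries, from the first steps of the pathway to ENR. Points are libraries, bars the mean and whiskers the SD of 3. In all 8 panels the mycorrhizal WT libraries lie above all others, and in the panel of the KAS II type gene WT control roots lie below both ram1 groups.

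The 3 tested acyl carrier proteins of plastids all rose in the WT, at very different levels. A further one, Peaxi162Scf00314g00425.1, had 10 reads over all libraries and was not tested. The abundant gene Peaxi162Scf01067g00112.1 had 323, 287 and 273 CPM in mycorrhizal ram1 roots and 309, 239.8 and 322 CPM in ram1 control roots. It had 569, 608 and 702 CPM in mycorrhizal WT roots and 274, 288 and 283 CPM in WT control roots (log2 fold change 1.15, SE 0.132, adjusted p 1.13e-04). The other tested ACP genes of plastids were close to absent from WT control roots. Both had a mean below 10 reads there and were tested only because another group reached this minimum. Gene Peaxi162Scf00431g00312.1 had 1.32, 2.40 and 1.99 CPM in mycorrhizal ram1 roots and 1 read in the 3 ram1 control libraries together, against 246, 215 and 271 CPM in mycorrhizal WT roots and 1 read in the 3 WT control libraries together. The ratio of mycorrhizal over control roots was 69.9 in ram1 (95% counting interval 12.0 to 2807) and 9058 in the WT (1625 to 357800), and this gene rose in ram1 as well (adjusted p 2.47e-04). Gene Peaxi162Scf00033g01724.1 had 1.09, 1.55 and 0.362 CPM in mycorrhizal ram1 roots and 0.574, 0.693 and 1.04 CPM in ram1 control roots. It had 112, 93.8 and 118 CPM in mycorrhizal WT roots and 0.162, 0.168 and 0.0783 CPM in WT control roots. It rose in the WT (9.53, adjusted p 2.71e-08) and did not pass the test in ram1 (adjusted p 0.66), and the responses differed (adjusted p 1.33e-05). Of the summed plastid ACP RPKM, Peaxi162Scf00431g00312.1 took 23.5% in mycorrhizal and 0.00884% in control roots of the WT. The 3 mitochondrial ACP genes did not pass the test in either line, with log2 fold changes of −0.17, 0.18 and −0.11 in ram1 and of 0.18, 0.18 and 0.15 in the WT.

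Condensing enzymes differed by type, which was taken from the descriptions alone, with exceptions in both types. KAS I and II lengthen ACP-bound chains and KAS III starts them from acetyl-CoA. Of the 8 tested genes of the KAS II type 4 rose and 1 fell in the WT, while of the 10 tested KAS III genes 1 rose and 5 fell. The KAS II type gene with the highest RPKM in mycorrhizal WT roots, Peaxi162Scf00074g00622.1, had 96.9, 111 and 109 CPM in mycorrhizal ram1 roots and 120.5, 91.8 and 138 CPM in ram1 control roots. It had 234, 193 and 204 CPM in mycorrhizal WT roots and 66.2, 36.1 and 30.1 CPM in WT control roots. It rose in the WT (log2 fold change 2.25, SE 0.263, adjusted p 1.27e-04), and in control roots it was also higher in ram1 than in the WT (1.40, adjusted p 0.00149). Gene Peaxi162Scf00102g01864.1 rose at a low level (13.0 CPM in mycorrhizal and 2.94 CPM in control WT roots, 2.13). Genes Peaxi162Scf01205g00019.1 and Peaxi162Scf01205g00158.1 rose too (1.16 and 0.94), but only 57.7% and 59.4% of their reads matched 1 gene, so their values are uncertain. The interaction of the second of them lost its call (adjusted p 0.0524 to 0.0571) without WT mycorrhizal replicate 1 or 2, WT control replicate 1 or ram1 control replicate 2.

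The KAS III gene Peaxi162Scf00516g00327.1 was the only one of its type that rose in the WT, with 23.8, 24.6 and 21.1 CPM in mycorrhizal ram1 roots and 27.3, 28.4 and 22.7 CPM in ram1 control roots. It had 82.0, 82.3 and 92.1 CPM in mycorrhizal WT roots and 32.2, 32.7 and 34.8 CPM in WT control roots (log2 fold change 1.36, SE 0.103, adjusted p 3.78e-06). Its share of the summed KAS III RPKM was 10.7% in mycorrhizal and 9.62% in control roots of ram1, against 26.6% in mycorrhizal and 6.37% in control roots of the WT. The KAS III genes that fell changed by −1.46 (Peaxi162Scf00909g00014.1), −1.09 (Peaxi162Scf00909g00216.1), −1.07 (Peaxi162Scf00133g00053.1), −1.06 (Peaxi162Scf00133g00527.1) and −1.02 (Peaxi162Scf01440g00025.1) on the log2 scale. The call of Peaxi162Scf00909g00216.1 was lost without WT mycorrhizal replicate 2 or 3 or WT control replicate 1 (adjusted p 0.0537 to 0.0767), and that of Peaxi162Scf01440g00025.1 without any WT library other than mycorrhizal replicate 1 and without ram1 control replicate 1 or 2 (0.0504 to 0.119). A pair of KAS III genes differed between the lines with and without the fungus, each being nearly without reads in one line. Gene Peaxi162Scf00133g00527.1 had 1 read over the ram1 control libraries, against 3333 over those of the WT (ratio 0.000287, 95% counting interval 7.27e-06 to 0.0016), and gene Peaxi162Scf00133g00016.1 had 400 reads over the ram1 control libraries against 1 over those of the WT (ratio 383, 68.4 to 15170). Over the mycorrhizal libraries the first had 2 reads in ram1 and 1536 in the WT (ratio 0.00151), and the second 170 in ram1 and 1 in the WT (ratio 197).

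Of the 4 KAR genes 2 rose and 1 fell in the WT, and both FabZ genes rose. The KAR gene Peaxi162Scf00128g00834.1 had 18.7, 26.3 and 17.9 CPM in mycorrhizal ram1 roots and 19.8, 19.3 and 22.0 CPM in ram1 control roots. It had 358, 362 and 400.5 CPM in mycorrhizal WT roots and 30.7, 28.5 and 25.9 CPM in WT control roots (log2 fold change 3.72, SE 0.151, adjusted p 2.78e-08). The response in ram1 was 0.03 and the difference between the responses −3.69 (adjusted p 3.43e-06). A second KAR gene, Peaxi162Scf00089g00334.1, rose less (0.81). Gene Peaxi162Scf00128g00834.1 held 15.1% of the summed KAR RPKM in mycorrhizal and 16.8% in control roots of ram1, against 74.9% in mycorrhizal and 22.1% in control roots of the WT. The FabZ genes Peaxi162Scf00003g03625.1 and Peaxi162Scf00001g00026.1 rose by 2.35 and 1.57 in the WT, and the first had 12.7, 12.2 and 11.8 CPM in mycorrhizal ram1 roots and 13.6, 13.6 and 12.4 CPM in ram1 control roots. It had 90.2, 88.7 and 90.3 CPM in mycorrhizal WT roots and 17.1, 18.6 and 17.1 CPM in WT control roots. Both had a lower response in ram1 (−2.47 and −1.63).

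ENR, which completes each cycle, is encoded by 4 members, of which 3 rose and 1 fell in the WT. Gene Peaxi162Scf00258g00430.1 had 47.0, 51.2 and 47.9 CPM in mycorrhizal ram1 roots and 50.1, 50.6 and 46.8 CPM in ram1 control roots. It had 362, 357 and 372 CPM in mycorrhizal WT roots and 52.3, 41.7 and 43.7 CPM in WT control roots (log2 fold change 2.98, SE 0.102, adjusted p 9.45e-09). Gene Peaxi162Scf00003g04334.1 rose by 3.03 in the WT, and in control roots it was higher in ram1 than in the WT (21.2 and 9.30 CPM, adjusted p 2.70e-05). The weakly expressed gene Peaxi162Scf00403g00113.1 rose by 2.14, and the difference of its response in ram1 (−1.80, adjusted p 0.0286) lost its call without WT mycorrhizal replicate 2, WT control replicate 2 or 3 or ram1 control replicate 1 or 2 (0.0511 to 0.0753). The fourth gene, Peaxi162Scf00202g00313.1, had 43.1, 36.3 and 34.5 CPM in mycorrhizal ram1 roots and 59.0, 46.3 and 55.4 CPM in ram1 control roots. It had 9.39, 6.45 and 9.77 CPM in mycorrhizal WT roots and 47.8, 18.5 and 24.7 CPM in WT control roots. Its mycorrhizal WT libraries were the lowest of the 12 (log2 fold change −1.83, SE 0.310, adjusted p 0.00167), and WT control replicate 1 was the highest of its group.

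**Figure D4:**
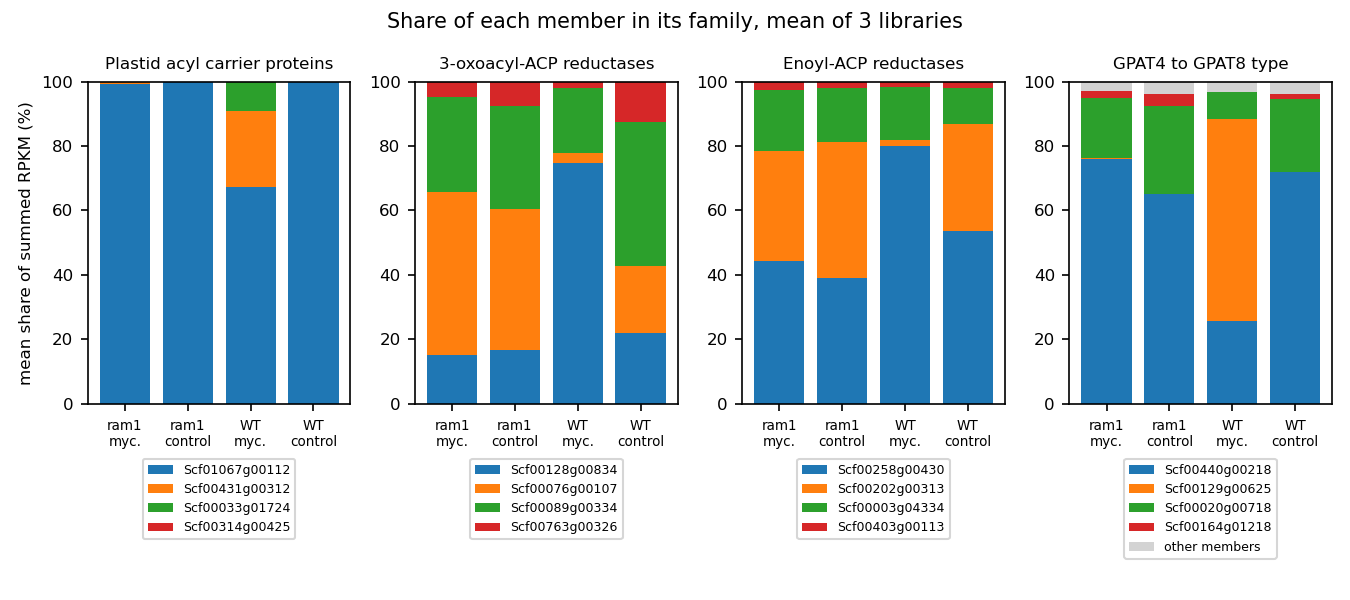
Mean share of each member in the summed RPKM of its family, in percent, for plastid ACP, KAR, ENR and GPAT4 to GPAT8 type genes in the 4 groups. In mycorrhizal WT roots the composition differs from the other 3 groups in each family, and RAM2 (Peaxi162Scf00129g00625.1) holds 62.7% of the GPAT4 to GPAT8 type there.

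Steps that end synthesis showed no common direction. Thioesterases, which release the fatty acid from ACP, had 2 higher and 3 lower genes of 7 tested in the WT. Of the higher ones Peaxi162Scf00205g01124.1 reached the read minimum of the test only in mycorrhizal WT roots. Of the lower ones Peaxi162Scf00361g00312.1 (−0.79, adjusted p 0.0498) lost its call without any 1 of the 6 WT or the 3 ram1 control libraries (0.0522 to 0.16). The palmitoyl-ACP thioesterase gene Peaxi162Scf00205g01124.1 had no read in any ram1 or WT control library, against 13.4, 8.63 and 15.2 CPM in mycorrhizal WT roots. That made it at least 154-fold higher in mycorrhizal than in control WT roots and at least 129-fold lower in mycorrhizal ram1 than in mycorrhizal WT roots, against a floor of 3 reads over a group. For genes with 1 read or none over a control group the 2 tools differed on the response in ram1 against that in the WT: the adjusted p was 1 with edgeR and 0.000256 with DESeq2 for this thioesterase, 1 and 3.79e-06 for RAM2, and 0.0797 and 0.000749 for the ACP gene Peaxi162Scf00431g00312.1. The thioesterase gene with the highest RPKM, Peaxi162Scf00546g00419.1, fell in the WT (−0.64). A second palmitoyl-ACP thioesterase gene, Peaxi162Scf00516g00330.1, fell at a low level (0.137 CPM in mycorrhizal and 0.974 CPM in control WT roots), and its log2 fold change of −2.72 was −1.17 (adjusted p 0.297) without WT control replicate 1. It lost its call without any other library except WT control replicates 2 and 3 as well (0.0501 to 0.112).

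Among the acyl-ACP desaturases, which place the first double bond, the gene with the highest RPKM, Peaxi162Scf00253g00061.1, rose slightly in the WT (0.49) and Peaxi162Scf00802g00235.1 fell. Gene Peaxi162Scf00802g00235.1 had 57.5, 17.0 and 24.0 CPM in mycorrhizal ram1 roots and 41.3, 50.9 and 37.4 CPM in ram1 control roots. It had 4.33, 6.79 and 7.86 CPM in mycorrhizal WT roots and 47.0, 15.1 and 24.2 CPM in WT control roots (log2 fold change −2.18, SE 0.502, adjusted p 0.00998). The groups of the WT did not overlap, while those of ram1 did. The gene Peaxi162Scf00254g00619.1 had 3.57 CPM in mycorrhizal and 1.51 CPM in control WT roots, and its call (1.23, adjusted p 0.0396) was lost without any of 8 libraries, which were the 3 WT mycorrhizal ones, WT control replicates 2 and 3, ram1 mycorrhizal replicates 2 and 3 and ram1 control replicate 2 (0.0501 to 0.143).

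Among the genes of the GPAT4 to GPAT8 type RAM2 rose and most others fell in the WT. RAM2 had 0.233, 1.13 and 0.271 CPM in mycorrhizal ram1 roots and no read in ram1 control roots, against 299, 285 and 278 CPM in mycorrhizal WT roots and no read in WT control roots. It was at least 3543-fold higher in mycorrhizal than in control WT roots, and it was tested only because mycorrhizal WT roots reached the read minimum. It also passed the test in ram1 (adjusted p 0.0395), but not without WT mycorrhizal replicate 1, 2 or 3, ram1 mycorrhizal replicate 3 or ram1 control replicate 1 or 2 (0.0576 to 0.096). Of the 5 other tested genes of the GPAT4 to GPAT8 type 4 fell in the WT. GPAT5 in Arabidopsis takes part in suberin synthesis, and the GPAT5 gene Peaxi162Scf00440g00218.1 had 274, 248 and 223 CPM in mycorrhizal ram1 roots and 197, 163 and 312 CPM in ram1 control roots. It had 106, 118 and 120.0 CPM in mycorrhizal WT roots and 317, 245 and 246 CPM in WT control roots. Mycorrhizal WT roots were the lowest group (log2 fold change −1.23, SE 0.212, adjusted p 0.00183), and the response was higher in ram1 (1.38, adjusted p 0.0163).

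**Figure D5:**
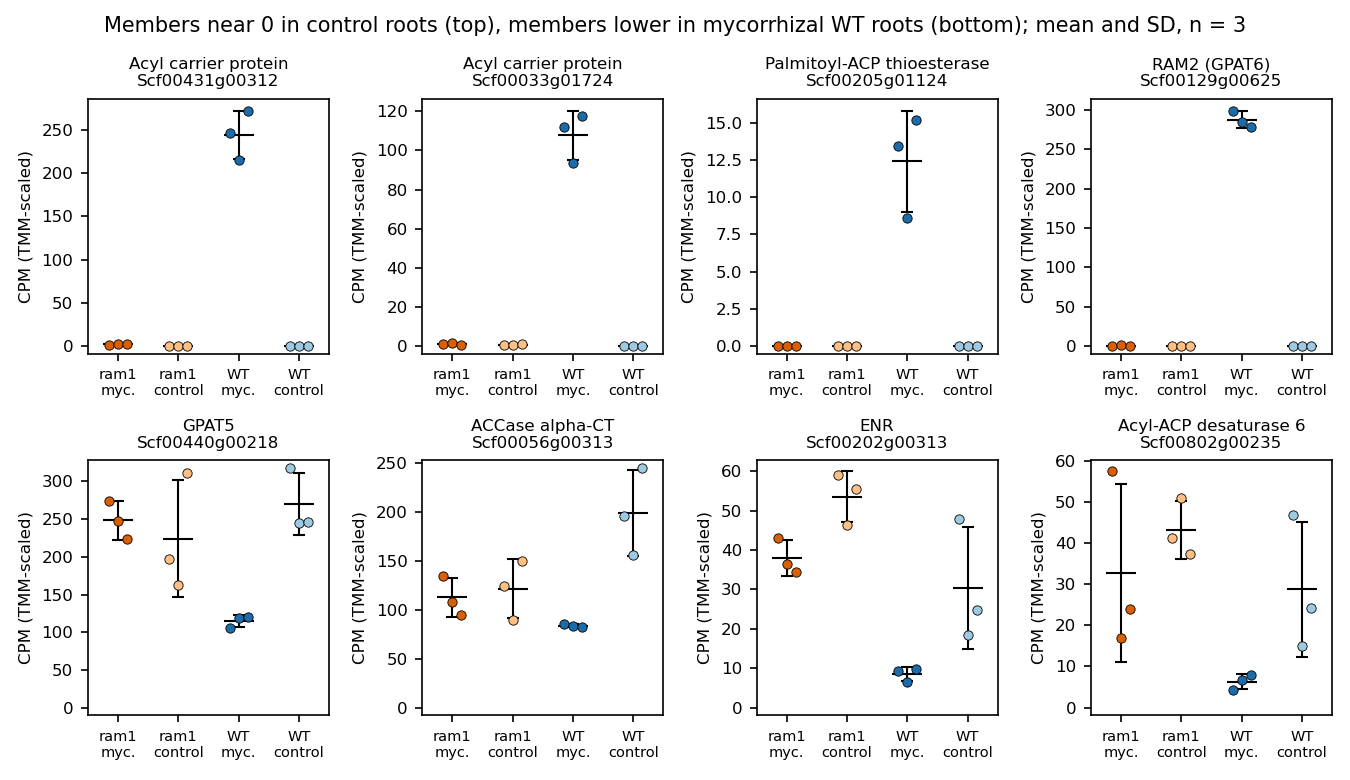
Level in CPM in each library of 4 members near 0 in control roots (top row) and 4 members lower in mycorrhizal WT roots (bottom row). Points are libraries, bars the mean and whiskers the SD of 3. In the top row the mycorrhizal WT libraries are the high ones, in the bottom row the low ones.

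A second GPAT5 gene, Peaxi162Scf00164g01218.1, fell by 2.95 on the log2 scale in the WT and responded differently in ram1 (2.31, adjusted p 0.0152, and 1.72 without WT control replicate 1). The GPAT4 genes Peaxi162Scf00020g00718.1 and Peaxi162Scf00008g02420.1 fell as well (−1.22 and −2.92), the second of them with an adjusted p of 0.0503 without WT mycorrhizal replicate 2 and, with a log2 fold change of −2.16, 0.0505 without WT control replicate 1. RAM2 held 0.166% of the summed RPKM of this type in mycorrhizal ram1 roots and 62.7% in mycorrhizal WT roots, and GPAT5 Peaxi162Scf00440g00218.1 held 76.1% in mycorrhizal ram1 roots and 25.6% in mycorrhizal WT roots. The GPAT of plastids, GPAT9 and the 4 LPAAT genes did not pass the test in the WT, with log2 fold changes of −0.09 for the plastid form and 0.16 for GPAT9. The LPAAT gene Peaxi162Scf01398g00013.1 (−0.92, adjusted p 0.0522) passed it with unique reads, with library totals alone, by DESeq2 and without WT control replicate 1 or ram1 mycorrhizal replicate 1 (adjusted p 0.017 to 0.049). Markers of the endodermis, a root layer that carries suberin, were 7 genes with a Casparian strip description, none at 0. They summed to 139.6 to 187 CPM in mycorrhizal ram1 roots and 189.8 to 228 CPM in ram1 control roots. In the WT they summed to 153 to 201 CPM in mycorrhizal and 169 to 239 CPM in control roots. Their part in the values above was not tested. Of the 6 tested, 1 was lower in mycorrhizal ram1 roots, and 1 was higher and 2 were lower in mycorrhizal WT roots, the higher one (Peaxi162Scf01089g00016.1) with 90.6 CPM in mycorrhizal and 18.4 CPM in control roots of the WT.

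Among the 16 tested genes with a fatty acid hydroxylase domain 2 rose and 4 fell in the WT, against 12.6% and 9.14% of all tested genes. The sterol 4-alpha-methyl oxidase gene Peaxi162Scf00265g00412.1 had 104, 122 and 71.3 CPM in mycorrhizal ram1 roots and 81.0, 106 and 114.9 CPM in ram1 control roots. It had 535, 408 and 109 CPM in mycorrhizal WT roots and 117, 131 and 110.2 CPM in WT control roots. Mycorrhizal WT replicate 3 lay below the WT controls while replicates 1 and 2 lay far above them, and the call (log2 fold change 1.55, SE 0.440, adjusted p 0.0274) was lost without WT mycorrhizal replicate 1 or 2 or any WT control replicate (adjusted p 0.0659 to 0.117). The sterol C5 desaturase Peaxi162Scf01445g00127.1 had the same low replicate 3, with 213, 175 and 59.7 CPM in mycorrhizal WT roots, and passed the test only when this library was left out (log2 fold change 0.98, adjusted p 0.0464). Genes Peaxi162Scf00103g02014.1 and Peaxi162Scf00297g00712.1 of the hydroxylase superfamily fell in the WT (−3.56 and −2.93). Without WT control replicate 1 these changes were −1.89 and −1.998, and without WT mycorrhizal replicate 3 the second was −3.61. In both, WT control replicate 1 stood apart, with 126, 18.0 and 15.2 CPM of the first in WT control roots, against 4.33, 2.68 and 6.41 CPM in mycorrhizal WT roots.

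In ram1, 2 of the 102 members were higher and 8 lower in mycorrhizal than in control roots, against 4.91% and 5.17% of all tested genes. The higher members were RAM2, which reached the read minimum only in mycorrhizal WT roots, and the ACP gene Peaxi162Scf00431g00312.1. Both of them were also among the 31 that were higher in the WT, and 1 remained without any of the libraries named above for RAM2. Without ram1 control replicate 3 and ram1 mycorrhizal replicate 1 together, 5 members were higher, 3 of them in the core. In the core the lower member was the thioesterase Peaxi162Scf00361g00312.1 (−1.17, lost without ram1 mycorrhizal replicate 2 or 3 or ram1 control replicate 1 or 2, adjusted p 0.0619 to 0.0959), and of the others the largest fall was that of the fatty acid hydroxylase Peaxi162Scf00395g00069.1 (−2.59, adjusted p 0.0544 to 0.0752 without ram1 mycorrhizal replicate 2 or 3 or ram1 control replicate 1 or 2). The LPAAT gene Peaxi162Scf01398g00013.1 fell in ram1 (−1.90, adjusted p 0.00983) and kept its call under every alternative. The dehydratase for very long chains Peaxi162Scf00196g00225.1 fell as well (−0.62, adjusted p 0.0602 without ram1 mycorrhizal replicate 2). The mitochondrial E1 beta gene Peaxi162Scf01064g00243.1 (−0.58) and the sphingolipid C4-hydroxylase gene Peaxi162Scf00226g00321.1 (−0.48) each lost their call when any 1 of 9 libraries was left out (0.053 to 0.15 and 0.052 to 0.153). The exceptions were WT control replicate 1 and ram1 mycorrhizal replicate 1 for both, with ram1 control replicate 3 for the first and WT control replicate 3 for the second. The number of lower members rested on single libraries. It was 14 by DESeq2, 16 without ram1 mycorrhizal replicate 1, 14 without WT control replicate 1 and 2 each without ram1 mycorrhizal replicate 2 or 3 or ram1 control replicate 1 or 2, and 18 without ram1 mycorrhizal replicate 1 and ram1 control replicate 3 together. Of these, the core held 8 without ram1 mycorrhizal replicate 1, 3 without WT control replicate 1 and 6 with both libraries left out. The mitochondrial pyruvate dehydrogenase E1 alpha gene Peaxi162Scf00828g00116.1 had 309.9, 321 and 260.4 CPM in mycorrhizal and 528, 541 and 390.0 CPM in control roots of ram1 (log2 fold change −0.71, SE 0.148, adjusted p 0.0184), with a call lost without ram1 mycorrhizal replicate 3 or ram1 control replicate 1 or 2 (0.0652 to 0.0719).

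The test of the difference itself, the response in ram1 minus that in the WT, called 24 members lower and 3 higher, against 5.17% and 4.04% of all tested genes. In the core 21 of 54 were lower and 1 higher, with a median difference of −0.53 on the log2 scale, against 0.01 over all tested genes. For the 21 lower core members the number was 19 to 22 when any single library was left out. This test uses the WT libraries again and is no independent repeat of the comparison in the WT. The 3 members with a higher response in ram1 were the alpha subunit of the carboxyltransferase Peaxi162Scf00056g00313.1 and the GPAT5 genes, all of which fell in the WT. Without ram1 control replicate 3 the number of such members was 7, of which 3 were in the core. The gene described as fatty acid desaturase 2, Peaxi162Scf00585g00071.1, fell in ram1 (−0.78, lost without ram1 mycorrhizal replicate 2 or 3 or ram1 control replicate 1 or 2, adjusted p 0.0644 to 0.0921) and rose in the WT (0.82), with a difference of −1.60.

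In control roots 15 members were higher and 28 lower in ram1 than in the WT, against 18.8% and 17.5% of all tested genes, and in the core these numbers were 8 and 20. In mycorrhizal roots 18 were higher and 53 lower, against 26.7% and 26% of all tested genes, and 37 of the 54 core members were lower. The lines thus differed without the fungus over all tested genes and not only in these members. In the core 14.8% were higher and 37.0% lower in ram1 control roots, and among KAS III genes 1 was higher and 6 were lower. Of the 27 core members that were higher in mycorrhizal WT roots, 14 differed between the lines in control roots. Among them were ENR Peaxi162Scf00003g04334.1, higher in ram1 (log2 difference 1.19, adjusted p 2.70e-05), and KAR Peaxi162Scf00128g00834.1, lower in ram1 (−0.47, adjusted p 0.0213). Others with a large response in the WT did not pass this test, with log2 differences of −0.09 for pyruvate dehydrogenase E1 beta, −0.04 for the biotin carboxyl carrier gene Peaxi162Scf00013g00635.1 and 0.10 for ENR Peaxi162Scf00258g00430.1 (adjusted p 0.472, 0.817 and 0.458).

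Genes next to the pathway, taken from lists of partner enzymes and cofactor synthesis, were compared in the same way. Of 40 tested genes 1 rose and 2 fell in ram1, 14 rose and 3 fell in the WT, and 12 had a lower response in ram1. Over all tested genes 4.91% rose and 5.17% fell in ram1, 12.6% rose and 9.14% fell in the WT, and 5.17% had a lower response in ram1. Of 11 tested genes described as E2 or E3 components of pyruvate dehydrogenase and its relatives 4 rose in the WT, among them dihydrolipoyl dehydrogenase (E3, Peaxi162Scf00673g00129.1, 3.62) and the acetyltransferase genes (E2) Peaxi162Scf00310g00822.1 (3.17) and Peaxi162Scf00004g01917.1 (3.03). The E3 gene had 67.0, 77.6 and 70.6 CPM in mycorrhizal ram1 roots and 51.1, 54.5 and 60.6 CPM in ram1 control roots. It had 614, 727 and 658 CPM in mycorrhizal WT roots and 62.7, 54.5 and 45.2 CPM in WT control roots. Lipoyl synthase of plastids (Peaxi162Scf00272g00922.1) and octanoyltransferase (Peaxi162Scf00280g00077.1), which make the lipoyl group that E2 carries, rose by 1.25 and 1.28. Glycerol-3-phosphate dehydrogenase Peaxi162Scf00080g01518.1, which supplies the glycerol backbone, had 8.24, 14.7 and 11.8 CPM in mycorrhizal ram1 roots and 5.33, 4.31 and 4.60 CPM in ram1 control roots. It had 183, 166 and 182 CPM in mycorrhizal WT roots and 3.25, 4.94 and 5.09 CPM in WT control roots. It rose in both lines, by 1.27 in ram1 and 5.32 in the WT, and the responses differed by −4.05 (adjusted p 2.36e-05). A gene for long-chain acyl-CoA synthetase 9 (Peaxi162Scf00560g00735.1), which activates fatty acids as they leave the plastid, rose in the WT (2.23). Another synthetase 9 gene, Peaxi162Scf00612g00126.1, did not pass the test there (−0.06), with 161 CPM in mycorrhizal and 168 CPM in control roots. A gene for synthetase 2 (Peaxi162Scf00786g00434.1), known in Arabidopsis from cutin synthesis, fell in the WT (−1.55). Its WT control replicates had 157.6, 59.3 and 65.4 CPM. Genes Peaxi162Scf00074g00929.1 and Peaxi162Scf00102g01743.1, also described as synthetase 2, did not pass the test in the WT (−0.19 and −0.21). The lists for plastid pyruvate kinase and WRINKLED1, a regulator of fatty acid synthesis in seeds of Arabidopsis, matched no description.

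Markers of AM symbiosis were lower in mycorrhizal ram1 than in mycorrhizal WT roots, and for most of them only mycorrhizal roots are given here. STR and STR2 encode half-size ABC transporters needed in arbuscules. STR (Peaxi162Scf00282g00221.1) had 3.27, 13.9 and 7.95 CPM in mycorrhizal ram1 roots, against 203, 202 and 221 CPM in mycorrhizal WT roots. In ram1 it had 228 reads over the mycorrhizal and 3 over the control libraries. A copy of STR2 (Peaxi162Scf00378g00624.1) had 2.80, 4.38 and 2.89 CPM in mycorrhizal ram1 roots, against 195, 181 and 227 CPM in mycorrhizal WT roots, and the other (Peaxi162Scf00286g00240.1) averaged 4.69 CPM in mycorrhizal ram1 and 153 CPM in mycorrhizal WT roots. The phosphate transporter PT4 (Peaxi162Scf00618g00532.1), a marker of arbuscules, had 7.62, 10.0 and 3.07 CPM in mycorrhizal ram1 roots and 650.4, 546 and 622 CPM in mycorrhizal WT roots. VAPYRIN (Peaxi162Scf00575g00001.1), needed for fungal entry into cells and for arbuscules, had 44.2, 60.7 and 55.0 CPM in mycorrhizal ram1 roots and 133, 146 and 148 CPM in mycorrhizal WT roots. The ammonium transporter AMT2 (Peaxi162Scf00341g00514.1) averaged 0.0862 CPM in mycorrhizal ram1 and 179.9 CPM in mycorrhizal WT roots. It had 3 reads over the mycorrhizal ram1 libraries and 3 over the WT control libraries. The exocyst subunit EXO70i (Peaxi162Scf00081g02225.1) averaged 6.28 CPM in mycorrhizal ram1 and 59.3 CPM in mycorrhizal WT roots. Markers of green tissue (45 genes for chlorophyll a/b-binding proteins and the small subunit of Rubisco, 7 of them at 0 in all libraries) summed to 61.0 to 69.5 CPM in mycorrhizal ram1 roots and 51.7 to 55.0 CPM in ram1 control roots, against 97.6 to 142 CPM in mycorrhizal WT roots and 59.0 to 79.1 CPM in WT control roots. Of the 12 tested, 2 were higher in mycorrhizal than in control roots of ram1 and 4 in those of the WT. Their part in the values of the plastid pathway was not tested.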

How the data were processed

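Paired-end mRNA reads of 12 root libraries (4 groups, 3 replicates) were trimmed and aligned by the authors to predicted transcripts of Petunia axillaris in CLC Genomics Workbench, with a length and similarity fraction of 0.9 and at most 10 hits per read. The deposited counts are total gene reads, in which the authors counted an intact pair as 2 reads and a broken pair as 1, so counting intervals and floors cover counting error only and are too narrow. The deposited RPKM values equal total reads per coding length and library total (largest deviation 0.001556%), and all lengths are coding lengths. The authors' own fold changes and test values (Baggerly test) were not used.

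Total gene reads were tested with edgeR 4.0.16 (R 4.3.3; TMM normalization, quasi-likelihood test, 1 fit over all 4 groups, Benjamini-Hochberg adjustment over 22954 genes with a mean of at least 10 reads in some group, threshold 0.05). All adjusted p values are from this fit unless DESeq2 (1.42.0) is named. The SE was derived from the fold change and its F value. Where a group had no reads, 3 reads in its libraries together served as the floor, and intervals are exact at 95%. The test was tried on simulated data with 100 genes raised 2-fold and 100 raised 5-fold in 1 group. It called 59 and 100 of them in the WT, and 63 and 95 in ram1. For the difference between the responses it called 17 and 88. False calls were 10, 8 and 4. A change of 2-fold could thus fail to pass, most of all for the difference between the responses. Members, steps and gene lists were chosen with earlier results of these data known. Named were members that passed in the WT with at least 2-fold or passed the test of the difference between the responses, the member with the highest RPKM of each step, up to 3 members of each neighbouring list, AM markers by identifier, and single members that passed in ram1. Others were named after their values were seen. Alternatives were unique reads, other filters and normalizations, DESeq2, only the groups compared, a replicate block and leaving out each library. Promoter motifs and sequences were not analysed here.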

Additional observations from a re-analysis of the deposited data

Results flagged for a closer look

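For 27 members the response to the fungus differed between ram1 and the WT by edgeR's test of the difference itself (adjusted p below 0.05). Values are the response in ram1 minus that in the WT, on the log2 scale, so a negative value is a lower response in ram1. Those with a lower response at the entry of the pathway were pyruvate dehydrogenase E1 (Peaxi162Scf00394g00118.1 with −2.99, Peaxi162Scf00047g02454.1 with −2.19 and Peaxi162Scf00317g00114.1 with −1.72), acetyl-CoA carboxylase (Peaxi162Scf00013g00635.1 with −3.27, Peaxi162Scf00021g02414.1 with −2.14 and Peaxi162Scf00141g00125.1 with −1.88) and the malonyl transferase (Peaxi162Scf00055g00057.1 with −1.62). The ACP genes differed by −9.24 (Peaxi162Scf00033g01724.1) and −1.13 (Peaxi162Scf01067g00112.1).

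Condensing enzymes with a lower response in ram1 were Peaxi162Scf00074g00622.1 (−2.40), Peaxi162Scf00102g01864.1 (−2.35), Peaxi162Scf01205g00019.1 (−0.92) and Peaxi162Scf01205g00158.1 (−0.95) of the KAS II type and Peaxi162Scf00516g00327.1 (−1.54) of the KAS III type. The KAR genes differed by −3.69 (Peaxi162Scf00128g00834.1) and −0.75 (Peaxi162Scf00089g00334.1), the FabZ genes by −2.47 (Peaxi162Scf00003g03625.1) and −1.63 (Peaxi162Scf00001g00026.1), and the ENR genes by −3.06 (Peaxi162Scf00003g04334.1), −3.0 (Peaxi162Scf00258g00430.1) and −1.80 (Peaxi162Scf00403g00113.1). Outside the core the fatty acid hydroxylase Peaxi162Scf00395g00069.1 differed by −3.01, the desaturase Peaxi162Scf00585g00071.1 by −1.60 and the dehydratase for very long chains Peaxi162Scf00196g00225.1 by −0.65. The call of Peaxi162Scf00196g00225.1 was lost (adjusted p 0.0504 to 0.0825) without any 1 of 10 libraries, the exceptions being WT control replicate 1 and ram1 mycorrhizal replicate 1.

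A higher response in ram1 was found for the carboxyltransferase subunit Peaxi162Scf00056g00313.1 (1.15) and for the GPAT5 genes Peaxi162Scf00440g00218.1 (1.38) and Peaxi162Scf00164g01218.1 (2.31).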

How the results depend on the processing

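Counts of members higher in mycorrhizal WT roots stayed between 26 and 31 without any 1 library (core 24 to 27) and lower ones between 14 and 22 (core 7 to 12). In ram1 the ranges were 1 to 3 higher (core 1 to 2) and 2 to 16 lower (core 0 to 8). For the response in ram1 minus that in the WT they were 2 to 7 higher (core 0 to 3) and 21 to 25 lower (core 19 to 22). Fitting only the groups compared gave 1 higher and 4 lower members in ram1 (core 0 lower). The DESeq2 Wald test gave 14 lower members in ram1 (core 4) and 5 with a higher response in ram1 (core 2). Leaving out ram1 control replicate 3 and ram1 mycorrhizal replicate 1 together, chosen after seeing the data, gave 5 higher (core 3) and 18 lower (core 6) members in ram1, and 8 with a higher response (core 3). No called value changed its sign, while some values that did not pass the test did. The causes of these shifts were not tested. Of the 45 named members called in the WT 38 kept their call under every alternative, as did 23 of 27 for the difference between the responses and 2 of 10 in ram1.

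The replicate numbers did not pair the samples. Deviations of same-numbered mycorrhizal and control libraries correlated at 0.36, −0.19 and 0.18 in ram1 and −0.08, 0.04 and −0.05 in the WT. With the number as a replicate block, 1 member was higher and 5 core members were lower in ram1, and 2 core members had a higher response in ram1.

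Depth limited the members near 0 in control roots, where 1 read or none was counted over a group and only a bound or a wide interval is given.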
